A study of Caenorhabditis elegans with 6 samples.

Results

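UDP-glucuronosyltransferases (UGTs) are membrane enzymes of the endoplasmic reticulum that join a sugar from a UDP-sugar donor to small fat-soluble molecules, which makes these molecules more soluble and easier to export. They act in the conjugation step of detoxification, after oxidation by enzymes such as cytochromes P450, and in Caenorhabditis elegans the family is large, with many genes lying side by side and many used in the intestine. DNA adenine methyltransferase identification (DamID) reads where a protein touches the genome: the bacterial enzyme Dam is fused to that protein, adds methyl groups to the GATC sequences within its reach, and the fragments so marked are amplified and read. Emerin, EMR-1 in the worm, is a protein of the inner nuclear membrane, so a high ratio of Dam::EMR-1 over free Dam marks chromatin near the nuclear edge.

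The UGT genes were taken as the protein-coding genes of WBcel235 (ce11) whose symbol is ugt followed by a number. Members were picked by name and not by any measured value, but the family was chosen with earlier results of these data known. The name rule gave 67 of 19971 annotated protein-coding genes, all with at least 1 listed GATC site in the gene body or the 500 bp on either side. The gene ratio was the mean of the log2 ratios of these sites in each of 3 replicates, and 64 of the 67 genes had at least 60 reads summed over the libraries. The 3 genes below this minimum were ugt-45 (12 reads), ugt-21 (33 reads) and ugt-34 (20 reads), and they were not tested. Of the 67 genes, 42 lay on chromosome V, 12 on IV, 5 on I, 4 on X, 3 on III and 1 on II. The table of genes used here names members but does not give a sequence, so similarity between members, and reads that could come from more than 1 of them, could not be assessed. Substrates of single UGT genes are not described here, and the members are set out by place and by ratio.

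The study holds 6 libraries of genomic DNA from wild-type embryos, 3 from strain BN1470 with Dam::EMR-1 and 3 from strain BN1465 with GFP::Dam, in which Dam is not tethered to the membrane. Because each construct was in its own strain, strain and construct cannot be told apart. Both strains were grown at 20 °C on E. coli GM119, which lacks Dam methylation, and 4000 adults per strain were bleached for embryos after 72 h. The labels give EMS, the founder cell of the intestine and of parts of the pharynx and muscle, as the cell type, but the DNA came from embryos and no cell-type marker can be read from DNA libraries. Recovered depth was 15719682 to 22407988 reads per library. The tables do not state the numerator of the ratio; it was taken as Dam::EMR-1 from the tables' naming, and with the opposite order every sign and every group's read level below would swap. "Enriched" here means higher, and "depleted" lower, in Dam::EMR-1.

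UGT genes lay on both sides of 0, with few enriched members. In limma's test across 18651 protein-coding genes with Benjamini-Hochberg adjustment at 0.05, 8 of 64 UGT genes were enriched, 17 were depleted and 39 were not called. The enriched share was 12.5%, against 30.3% of all genes tested, and the depleted share was 26.6%, against 27.2%. The median log2 ratio of the UGT genes was -0.52 (mean of the 3 replicate medians -0.47 ± 0.32, SD, n = 3) and that of all genes was 0.31. In the replicates taken singly, the UGT median was -0.14, -0.77 and -0.49, and the median of all genes was 0.29, 0.31 and 0.09. The UGT median was the lower one in 3 of 3 replicates, and without replicate 2 it was -0.14. The number of enriched members fell to 4 without replicate 1 and to 4 without replicate 3, and the number of depleted members fell to 11 without replicate 2. At an adjusted p of 0.01, 3 members were enriched, against 20.5% of all genes, and 12 were depleted, against 18.9%.

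Single members ran from -6.34 for ugt-23 to 3.84 for ugt-42, with 27 above 0 and 37 below. When the ratios were scaled by total reads and the authors' centring was dropped, the median of all genes moved from 0.31 to 0.58, and 12 UGT genes were enriched (33.3% of all genes) and 15 depleted (24.7% of all genes). In edgeR's quasi-likelihood test on recovered reads summed per gene, 2 UGT genes were enriched, against 17.3% of all genes, and 13 were depleted, against 17.1%. Of the 8 enriched members, ugt-22 and ugt-15 also passed in edgeR without a replicate block, and ugt-42 alone passed with the block. Whether the replicates were grown as separate cultures is not in the labels, so each p-value reflects the spread among these libraries alone, which may be technical.

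**Figure D1:**
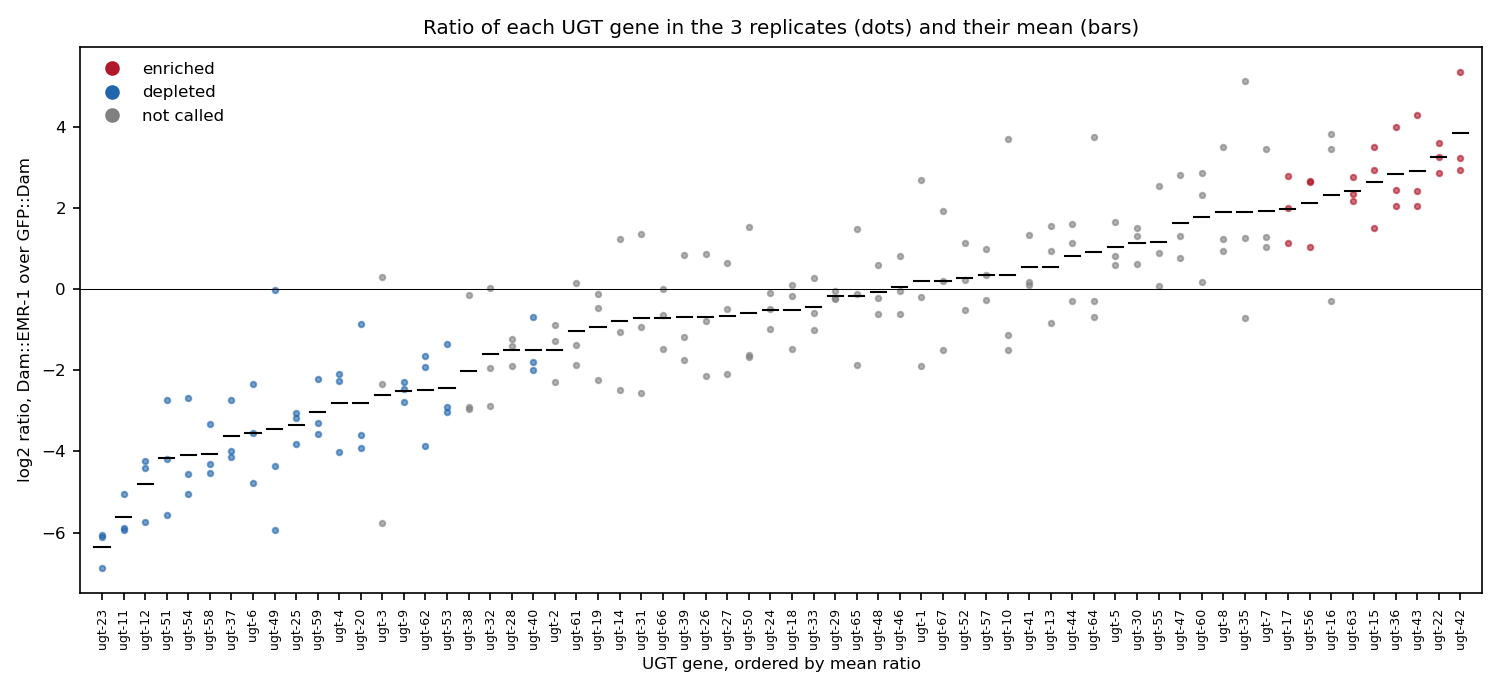
Log2 ratio (Dam::EMR-1 over GFP::Dam) of each of the 64 tested UGT genes, ordered by mean, with 1 dot per replicate coloured by the limma call and a bar at the mean. The 17 depleted genes begin with ugt-23 at -6.34, the 8 enriched genes end with ugt-42 at 3.84, and most of the 39 genes that were not called lie between, mixed with called ones at both edges, such as ugt-3 and ugt-16.

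The read level behind the calls differed between the groups in both directions. These reads also make the ratios, so groups that lie apart in a called gene are a description and not separate support for its call. In the 17 depleted genes, the median level per site was 0.436, 0.453 and 0.979 CPM (recovered reads scaled to the library's total) in Dam::EMR-1 replicates 1 to 3 and 8.53, 6.96 and 8.30 in GFP::Dam. In the 8 enriched genes it was 4.70, 4.12 and 3.86 in Dam::EMR-1 and 0.500, 0.325 and 0.480 in GFP::Dam. The GFP::Dam median of the depleted set was above, and that of the enriched set below, the GFP::Dam median over all genes, 0.993 to 1.39 CPM per site. The Dam::EMR-1 median over all genes, 1.80 to 2.10 CPM per site, lay above that of the depleted set and below that of the enriched set. The 486 of 542 distinct UGT sites with recovered reads, each counted once, held 0.147% to 0.209% of the reads of a Dam::EMR-1 library and 0.303% to 0.321% of those of a GFP::Dam library. Summed shares give most weight to members with many reads. Over the 64 tested genes the median level per site was 2.49, 1.47 and 2.31 CPM in Dam::EMR-1 and 2.04, 1.74 and 1.83 in GFP::Dam. A low ratio can come from fewer reads in Dam::EMR-1, from more reads in GFP::Dam, or from both, and its cause was not tested. Fewer cells with a contact and a weaker contact per cell also give the same reading in these pooled embryos.

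The lowest UGT gene was ugt-23 (CELE_C17G1.3), on chromosome X at 9922862 to 9925173. Its log2 ratios were -6.11, -6.87 and -6.05 (-6.34 ± 0.46, SD, n = 3; limma adjusted p = 1.69e-05). Per site it had 0.415, 0.245 and 0.572 CPM in Dam::EMR-1 and 30.4, 29.1 and 28.0 in GFP::Dam. The 3 GFP::Dam libraries were close together and far above each of the Dam::EMR-1 libraries. All of its 13 sites had a mean ratio below 0, between -8.71 and -2.03, so no single site carried the value. In the authors' deposited table, 11 of these sites were lower in Dam::EMR-1 at an adjusted p of 0.05. The gene lay in a depleted run of 10-kb bins that covered 50 kb.

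Next in order were neighbours on the left part of chromosome V. The gene ugt-11 (CELE_T19H12.10, V 4892588 to 4895071) had log2 ratios of -5.94, -5.89 and -5.04 (-5.62 ± 0.51, SD, n = 3; limma adjusted p = 8.67e-05). Per site, ugt-11 had 0.223, 0.170 and 0.106 CPM in Dam::EMR-1 and 15.4, 21.7 and 21.2 in GFP::Dam. These groups did not overlap, and all 6 sites of ugt-11 were below 0. The gene ugt-12 (CELE_T19H12.9, V 4887165 to 4889629) had log2 ratios of -5.73, -4.41 and -4.22 (-4.79 ± 0.82, SD, n = 3; limma adjusted p = 0.000232). Its Dam::EMR-1 libraries held 2, 52 and 201 reads over 9 sites, and its GFP::Dam libraries 1775, 2879 and 1246. Dam::EMR-1 replicate 1 was thus the lowest library of ugt-12, and its ratio rests on those 2 reads and on the 1 read added to each value by the authors.

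The same limit was stronger for ugt-51 (CELE_C03A7.11, V 5175020 to 5177309), another gene of the left part of V. It had 1, 2 and 2 reads in Dam::EMR-1 and 200, 85 and 372 in GFP::Dam over 6 sites. Its log2 ratios were -4.19, -2.74 and -5.56 (-4.16 ± 1.41, SD, n = 3; limma adjusted p = 0.00301). The direction was the same in all replicates, while the size of each ratio follows the GFP::Dam reads, since Dam::EMR-1 gave almost none.

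The other lowest members lay on 4 chromosomes. They were ugt-54 on IV (-4.09 ± 1.24, limma adjusted p = 0.000576), ugt-58 on II (-4.06 ± 0.64, 0.00178), ugt-37 on V (-3.62 ± 0.78, 0.000368) and ugt-6 on V (-3.55 ± 1.23, 0.000535), each SD with n = 3. After them came ugt-49 on V (-3.44 ± 3.06, limma adjusted p = 0.0199), ugt-25 on I (-3.34 ± 0.41, 0.00295), ugt-59 on IV (-3.02 ± 0.72, 0.00284) and ugt-4 on V (-2.80 ± 1.07, 0.00927). Among the called members the replicates of ugt-49 were the most spread, with log2 ratios of -0.03, -5.94 and -4.36, and its call was lost without replicate 2 or replicate 3. The call of ugt-4 was lost without replicate 2, and its read levels, 0.310 to 3.94 CPM per site in Dam::EMR-1 and 3.92 to 5.57 in GFP::Dam, overlapped slightly. Reads of ugt-40, another depleted member (-1.50 ± 0.71, limma adjusted p = 0.0489), overlapped too, and 7 of its 13 sites were above 0. The other depleted members, ugt-20, ugt-9, ugt-62 and ugt-53, ranged from -2.80 to -2.43. The calls of ugt-40, ugt-9 and ugt-62 were lost whichever replicate was left out, and that of ugt-20 without replicate 2 or replicate 3.

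The highest member was ugt-42 (CELE_F31F4.7), near the left end of V at 647188 to 649763. Its log2 ratios were 5.35, 2.93 and 3.22 (3.84 ± 1.32, SD, n = 3; limma adjusted p = 0.00157). Per site it had 14.5, 2.95 and 7.70 CPM in Dam::EMR-1 and 0.0697, 0.0410 and 0.877 in GFP::Dam. All 9 sites were above 0, and each Dam::EMR-1 library was above each GFP::Dam library, although the levels within each group varied widely. The edgeR test without a replicate block did not call ugt-42 (log2 change 4.09, adjusted p = 0.0530), and edgeR with the block did (4.96, adjusted p = 0.0448).

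The gene ugt-22 (CELE_C08F11.8), on the right part of IV at 13639260 to 13644402, had the most even replicates among the 3 highest members, with log2 ratios of 3.26, 2.87 and 3.60 (3.24 ± 0.36, SD, n = 3; limma adjusted p = 0.00134). Per site it had 6.01, 15.3 and 16.1 CPM in Dam::EMR-1 and 0.935, 1.51 and 1.56 in GFP::Dam. The groups did not overlap, and 9 of 10 sites were above 0. The gene lay in an enriched run of 10-kb bins that covered 80 kb.

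The remaining enriched members were ugt-43 on IV and ugt-36, ugt-15, ugt-63, ugt-56 and ugt-17 on V. Their mean log2 ratios were 2.92 ± 1.20 for ugt-43, 2.82 ± 1.02 for ugt-36, 2.64 ± 1.03 for ugt-15, 2.42 ± 0.30 for ugt-63, 2.11 ± 0.94 for ugt-56 and 1.97 ± 0.83 for ugt-17 (SD, n = 3; limma adjusted p = 0.0039 to 0.0476). In recovered reads, their Dam::EMR-1 libraries were above their GFP::Dam libraries without overlap, in some genes on few reads. The gene ugt-63 had 5 to 7 reads per GFP::Dam library. In ugt-56, 5 to 10 were recovered, from 4 of its 6 sites, and the reads of the other sites could not be assigned to libraries. The calls of ugt-63, ugt-56 and ugt-17 were lost whichever replicate was left out. The call of ugt-15 was lost without replicate 1 or replicate 3, and that of ugt-36 without replicate 3. Just outside the threshold in limma were ugt-38 (-2.01 ± 1.60, adjusted p = 0.0527), ugt-7 (1.92 ± 1.33, 0.0548) and ugt-3 (-2.61 ± 3.04, 0.0549), and ugt-16 (2.32 ± 2.27) missed it by the smallest margin (SD, n = 3).

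**Figure D2:**
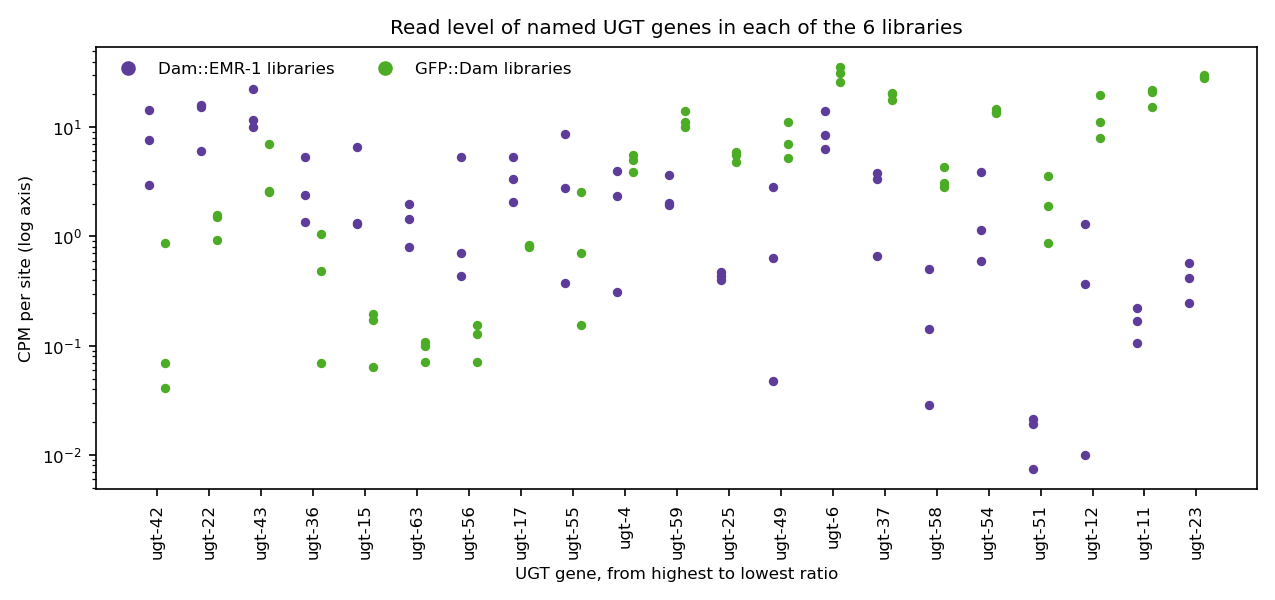
Read level in CPM per GATC site (log axis) of 21 named UGT genes, ordered from the highest to the lowest ratio, with 3 points for Dam::EMR-1 and 3 for GFP::Dam per gene. For ugt-23 the GFP::Dam points lie together near 30 and the Dam::EMR-1 points below 1, while for ugt-42 the order is turned and the points of each group are spread widely.

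Single GATC sites were read from the authors' own tests. The windows of the UGT genes held 542 distinct sites, 1 to 17 per gene with a median of 9, against a median of 6 per gene over all genes. Members had a median of 1990 reads and all genes a median of 2041. An adjusted p was given in the authors' deposited table for 448 of these sites, of which 40 (8.93%) were higher in Dam::EMR-1, against 18.3% of all sites, and 95 (21.2%) were lower, against 19.1% of all sites. Since 22 members shared at least 1 site with another member, the values of neighbours are not fully separate.

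Across the 64 members the ratio was set against the amount of data. Pearson's r was -0.06 with the number of sites, -0.20 with log2 reads and 0.09 with gene length. These correlations are across genes, which are not independent replicates, and are given as descriptions.

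The next question was whether UGT genes follow the place where they lie. Every chromosome was split into 3 equal lengths, and the outer pair was set against the middle one. The mean log2 ratio of non-UGT genes was higher in outer segments by 1.64, 1.76 and 1.54 in the 3 replicates (1.65 ± 0.11, SD, n = 3). In UGT genes the same difference was -0.23, 0.86 and 0.01 (0.22 ± 0.57, SD, n = 3). The sign of the UGT difference varied between replicates and was negative over 2-kb bins. In 3 of 3 replicates the difference was below that of the other genes. No test was run on this difference, which is given as a description.

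**Figure D3:**
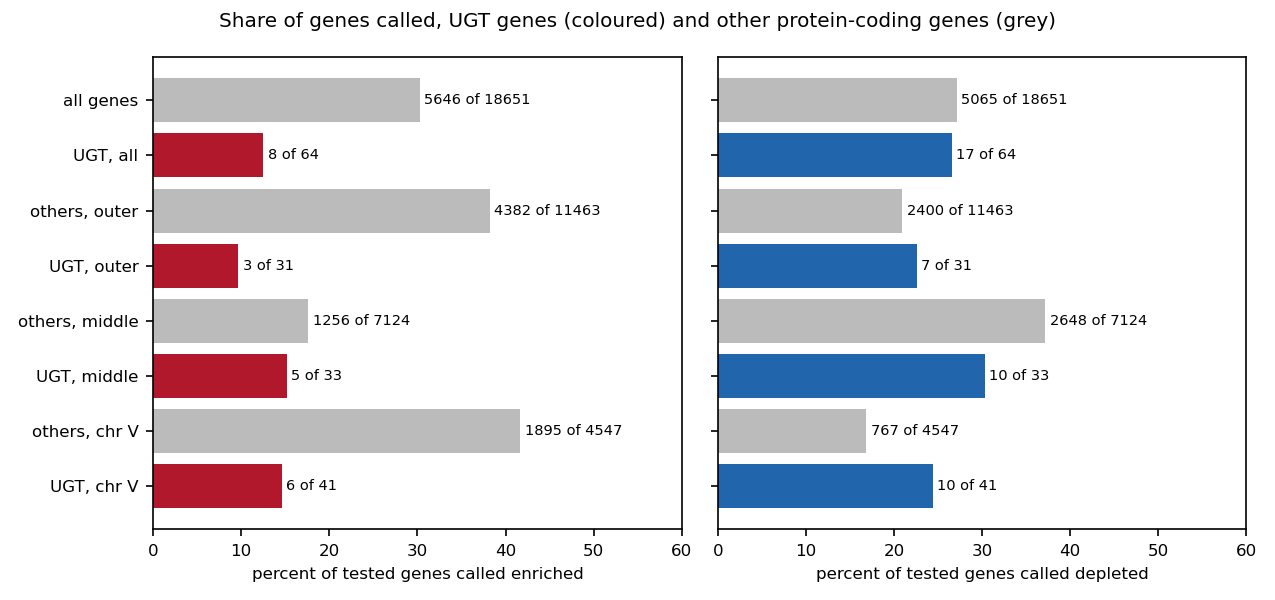
Percent of genes enriched and percent depleted (limma, adjusted p of 0.05) among UGT genes (coloured bars) and other protein-coding genes (grey bars), in all, in the outer and middle chromosome segments and on chromosome V, with the counts beside the bars. Among other genes the enriched share was 17.6% in the middle and 38.2% in the outer segments, and among UGT genes it was 15.2% and 9.68%.

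Over all chromosomes, the UGT median was above that of other genes in the middle segments and below it in the outer ones. Of 33 members in the middle, 5 were enriched and 10 depleted (median log2 ratio -0.52), beside 17.6% enriched, 37.2% depleted and a median of -1.03 in other genes. In the outer segments 3 of 31 members were enriched and 7 depleted (median -0.17), beside 38.2% enriched, 20.9% depleted and a median of 1.13 in other genes. The gap was largest, among the segments of V with more than 1 member, on the left part of V. Its 18 UGT genes held 2 enriched and 5 depleted members and a median of -0.13, and its 1410 other genes had 48.5% enriched, 13.8% depleted and a median of 2.12. In the middle of V, 22 members (4 enriched, 5 depleted) had a median of -0.13 and other genes a median of 0.31. In the middle of IV, 7 members had a median of -0.94 and other genes a median of -0.74, so within V and within IV the UGT median was below that of other genes in the middle as well. On the whole of V, 6 of 41 members were enriched and 10 depleted, while 41.7% of the other genes were enriched and 16.9% depleted.

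The other chromosomes carried few members. On IV, 2 of 10 were enriched and 3 depleted, beside 32.6% and 25.9% of the other genes there. Of the 13 members on I, II, III and X together, 0 were enriched in limma, 1 passed in that direction at an unadjusted p of 0.05, and 0 were enriched in edgeR. Each of these chromosomes had 1 depleted member, namely ugt-25 on I, ugt-58 on II, ugt-62 on III and ugt-23 on X. Of the other genes on these 4 chromosomes, 20.9% to 31.5% were enriched and 25.7% to 38.3% depleted, by chromosome.

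Each UGT gene was then set against its own neighbourhood, the median ratio of the non-UGT genes centred within 100 kb, of which there were 15 to 58. This comparison was chosen after the data were seen. In limma on the difference, adjusted over all 18651 genes, 9 UGT genes were above their neighbourhood, against 17.6% of all genes. Below it were 17, against 20.0% of all genes. The neighbourhood of any other gene left out only that gene, so its own family stayed in. These shares are thus not a fully like comparison. The median difference over the 64 members was -0.39, with -0.03, -0.75 and -0.26 in the replicates; without replicate 2 it was 0.05. Without replicate 1, and again without replicate 3, 4 members were above their neighbourhood. A member's difference is the mean of its 3 replicate differences, so it need not equal its mean ratio minus the neighbourhood median of mean ratios. Across the 64 members the ratio and the neighbourhood median had a Pearson r of 0.17 and a Spearman rho of 0.17, a description only.

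**Figure D4:**
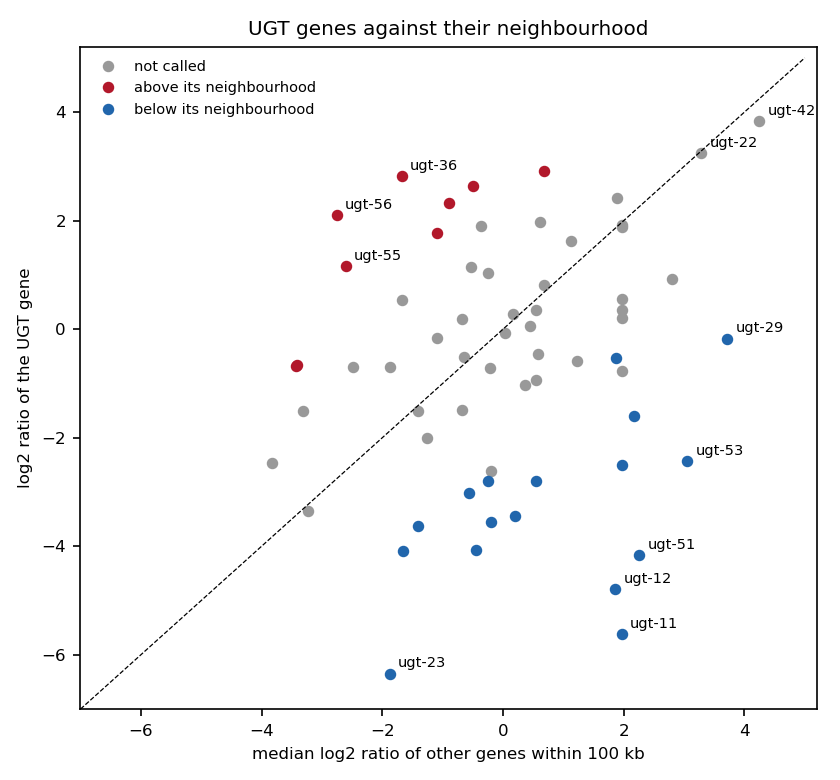
Mean log2 ratio of each tested UGT gene (vertical axis) against the median log2 ratio of the non-UGT genes within 100 kb (horizontal axis), with the line of equality and colours for the limma test of the difference. Genes far below the line, such as ugt-11, ugt-51, ugt-12 and ugt-53, lie in neighbourhoods above 0, and ugt-56 and ugt-36 lie above the line in neighbourhoods below 0.

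The members farthest below their surroundings were depleted genes of the left part of V, in stretches with a median above 0. The differences were -6.64 ± 0.61 for ugt-11 (limma adjusted p = 8.7e-05), -6.24 ± 1.46 for ugt-51 (0.00059) and -5.83 ± 0.42 for ugt-12 (0.00015), SD with n = 3. Their neighbourhoods had medians of 1.97, 2.25 and 1.86. The members farthest above lay in stretches below 0 in the middle of V, and of these ugt-56 and ugt-36 were enriched and ugt-55 (1.17) was not called. The differences were 4.75 ± 1.00 for ugt-56 (limma adjusted p = 0.0018), 4.31 ± 1.41 for ugt-36 (0.0034) and 3.73 ± 1.17 for ugt-55 (0.0055), SD with n = 3. In the pair ugt-55 and ugt-56, which share 1 site, the neighbourhood medians were -2.61 and -2.75. Of the 44 non-UGT genes centred within 100 kb of the ends of the pair, 25 were depleted and 0 were enriched in limma, with 0 enriched at an unadjusted p of 0.05 and 0 in edgeR.

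By contrast the 2 members with the highest ratios sat in neighbourhoods with a high median. The neighbourhood of ugt-42 had a median of 4.24 and that of ugt-22 a median of 3.29, and neither gene was called different from it. The 10-kb bin of ugt-42 itself was at 0.97 and was not called (limma adjusted p = 0.295). The lowest member, ugt-23, was in a depleted stretch (-1.87) and still below it by -4.25 ± 0.62 (SD, n = 3; limma adjusted p = 0.00039). For ugt-29, at the left end of V, a ratio near 0 (-0.17 ± 0.11, SD, n = 3) was below a neighbourhood of 3.72 by -3.63 ± 0.54 (SD, n = 3; limma adjusted p = 0.0012). Its 13 sites ran from -7.0 to 5.16, so its mean joins sites of opposite sign.

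Steps between a UGT gene and the next gene with at least 60 reads, at any distance, were tested as well, also after the data were seen. In limma on the difference of adjacent genes, adjusted over 18645 pairs genome-wide, 10 of 88 pairs with 1 UGT member passed in either direction. Of all 18645 pairs, 1757 passed in either direction, with 4.76% called higher and 4.66% lower in the gene to the right. At an unadjusted p of 0.05, 29 of the 88 pairs differed, beside 27.7% of all pairs. The widest step lay between ugt-53 (CELE_T03D3.1, V 2849343 to 2852028) and the chemoreceptor gene srj-57, 2365 bp away, where the ratio changed by 7.73 ± 2.44 from -2.43 to 5.30 (SD, n = 3; adjusted p = 0.011). With gene bodies alone, ugt-53 itself was at -1.28 and not called. Its 3 lowest sites were at its left end, 131 and 44 bp before its start coordinate and 297 bp after it, with log2 ratios of -6.44, -9.51 and -6.47. Steps down into members were found from the chemoreceptor gene srt-65 into ugt-51 (-6.58 ± 1.90, adjusted p = 0.014) and from T19H12.3 into ugt-12 (-6.19 ± 0.90, 0.011). The step up from C07A9.9 into ugt-60 on III, 8679 bp away, was 6.43 ± 2.25 (adjusted p = 0.014). From ugt-36 to lgc-39, a ligand-gated ion channel gene 6220 bp away, the step was -4.92 ± 0.85 (adjusted p = 0.019, SD with n = 3 for each step). The calls depended on having all 3 replicates: 1757 pairs were called genome-wide with all of them, 280 without replicate 1, 45 without replicate 3 and 0 without replicate 2, where 3905 passed at an unadjusted p of 0.05. The step from ugt-53 to srj-57 was the 1 step at a UGT gene still called without replicate 1 and without replicate 3.

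UGT genes that lie in a row covered a wide range of ratios. There were 4 groups of at least 3 UGT genes with gaps of at most 20 kb, which held 25 members, 2 of them enriched and 8 depleted (median log2 ratio -0.70). The 11 tested members in pairs had 3 enriched, 1 depleted and a median of 1.17, and the 28 single members had 3 enriched, 8 depleted and a median of -0.49. Depleted were thus 32.0% of the members in groups, 9.09% of those in pairs and 28.6% of the single ones, beside 27.2% of all genes. Enriched were 8.0%, 27.3% and 10.7% in the same order, beside 30.3%. Of 20 adjacent UGT pairs tested, 1 differed in limma: from ugt-5 to ugt-4, which are 49 bp apart, the ratio changed by -3.82 ± 1.08, from 1.03 to -2.80 (SD, n = 3; adjusted p = 0.032). At an unadjusted p of 0.05, 5 of the 20 pairs differed, beside 27.7% of all adjacent pairs.

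The widest range was in the group of 8 genes that begins with ugt-12, at V 4887165 to 4911399, a stretch of 24.2 kb. Along the chromosome the log2 ratios were -4.79 in ugt-12, -5.62 in ugt-11, -2.51 in ugt-9, 0.35 in ugt-10, 0.20 in ugt-67, 1.89 in ugt-8, -0.78 in ugt-14 and 0.55 in ugt-13. The first 3 genes were depleted and the next 5 were not called. Among the latter, ugt-67 and ugt-8 had 212 and 299 reads over all libraries. The log2 ratios of ugt-10 were -1.13, -1.51 and 3.70, with 1, 0 and 596 reads in Dam::EMR-1, and those of ugt-14 were 1.22, -2.50 and -1.06. The pair ugt-67 and ugt-8 shared 2 sites, as did ugt-14 and ugt-13, and ugt-9 and ugt-10 shared 1. The non-UGT neighbours of the group had a median of 1.97, with 16 of 49 enriched and 3 depleted. The step from ugt-11 to ugt-9 was 3.16, 3.43 and 2.75 in the replicates and missed the threshold in limma (adjusted p = 0.058).

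The group of 6 genes from ugt-40 to ugt-36, at V 7139475 to 7169281 (29.8 kb), was lowest in ugt-37 and highest in ugt-36. In order the log2 ratios were -1.50 in ugt-40, -3.62 in ugt-37, -2.01 in ugt-38, -0.70 in ugt-39, 0.54 in ugt-41 and 2.82 in ugt-36. The first 2 of these genes were depleted and the last was enriched, and the neighbours had a median of -0.81. Since ugt-40 and ugt-37 overlap and share 5 sites, their values are not separate measurements. The body of ugt-40 alone, without flanks, gave 0.20 and was not called. In the 9.67 kb between ugt-38 and ugt-39, where other genes lie, all 28 sites with at least 60 reads were below 0 (-6.83 to -0.39), and in ugt-36 all 4 such sites were above 0 (2.34 to 4.20).

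The group of 7 genes from ugt-5 to ugt-15, at V 12790676 to 12830114 (39.4 kb), also held both directions. The log2 ratios were 1.03 in ugt-5, -2.80 in ugt-4, -3.55 in ugt-6, -2.61 in ugt-3, -0.51 in ugt-18, 2.32 in ugt-16 and 2.64 in ugt-15. Here ugt-4 and ugt-6 were depleted and ugt-15 was enriched, around a neighbourhood median of -0.32. In the body of ugt-5, 2 sites close together reached 7.63 and 7.60, and in ugt-4 all 6 sites with at least 60 reads were below 0. The 20.0 kb between ugt-3 and ugt-18 held 21 such sites, 14 above and 7 below 0, and all 8 in ugt-16 and all 5 in ugt-15 were above 0.

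The group of 4 on chromosome I, from ugt-26 to ugt-25 at 4721131 to 4735276 (14.1 kb), stayed below 0, from -0.65 in ugt-27 to -3.34 in ugt-25. Its neighbours were lower, with a median of -3.20 and 26 of 42 depleted, and ugt-26 and ugt-27 were above their neighbourhoods by 2.91 each (limma adjusted p = 0.045 and 0.029).

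**Figure D5:**
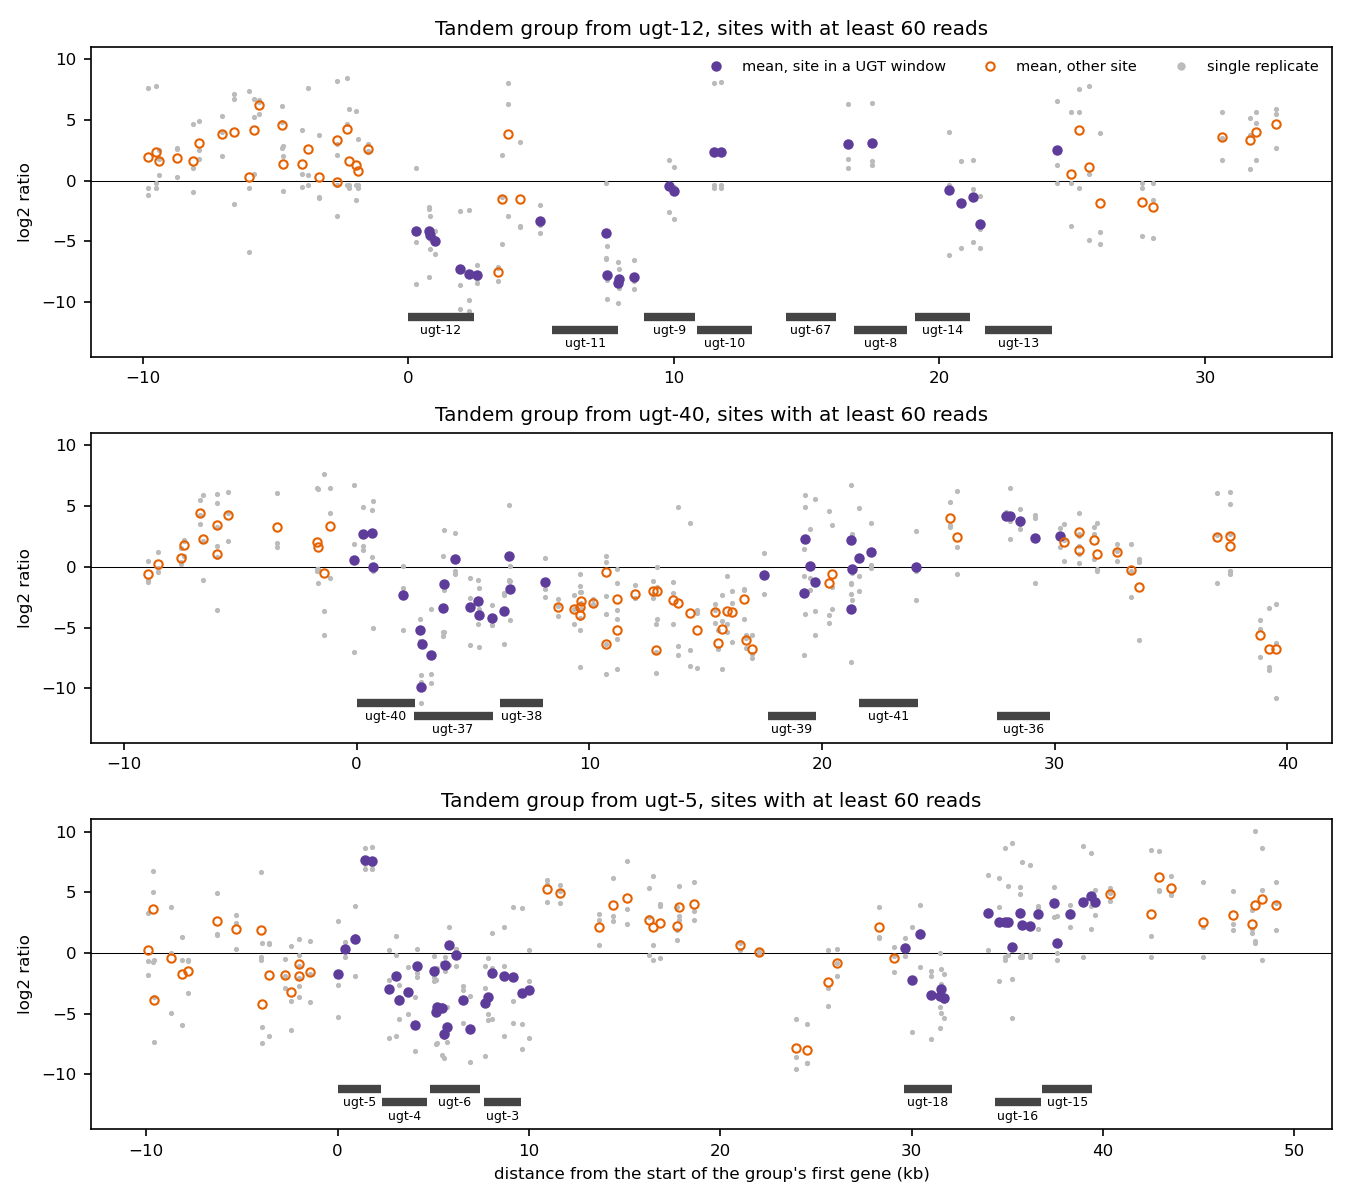
Log2 ratio of single GATC sites with at least 60 reads along the 3 groups of neighbouring UGT genes on V, against the distance in kb from the start of the first gene, with filled points for sites in UGT windows, open points for other sites, small points for single replicates and bars at the bottom for the genes. In the group of 8 all sites in the bodies of ugt-12 and ugt-11 lie below 0, in the group of 6 all 28 sites between ugt-38 and ugt-39 do, and in the group of 7 those in the bodies of ugt-16 and ugt-15 lie above 0.

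On the scale of 10-kb bins few members were in domains, meaning runs of at least 2 adjacent bins called in the same direction. Enriched domains held 4 of 64 members (6.25%, against 23.2% of all genes), which were ugt-22, ugt-43, ugt-44 and ugt-7. Depleted domains held 10 members (15.6%, against 19.9% of all genes). Members in enriched domains included ugt-44 and ugt-7, which were not called as genes (0.81 and 1.92).

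Other genes of the pathway were read in the same limma test. The list of genes for UDP-sugar supply and transport had 19 genes, 17 of them tested. It was not limited to genes that make or carry the donor sugar, and also held sqv-1, uda-1 and mig-23. Of these, 2 were enriched and 7 depleted (median log2 ratio -1.43), beside 30.3% and 27.2% of all genes. Depleted genes included the nucleotide sugar transporter genes nstp-10 (-4.33, -7.50 and -6.52; mean -6.12 ± 1.62, limma adjusted p = 8.2e-05), ugtp-1 (-4.63 ± 0.60, 0.00097) and nstp-2 (-4.47 ± 1.46, 0.0023), and gale-1, for UDP-galactose epimerase (-2.19 ± 0.62, 0.0082), SD with n = 3. The UDP-glucose dehydrogenase gene sqv-4, the source of UDP-glucuronic acid, was at -2.98 ± 0.40 (SD, n = 3; limma adjusted p = 0.010). Enriched were nstp-7 (4.98 ± 0.80, limma adjusted p = 0.00024) and nstp-8 (2.29 ± 1.61, 0.019), transporter genes of the left part of V (SD, n = 3).

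Among 23 listed regulators of the xenobiotic and stress response, 18 were depleted and 0 were enriched in limma, with 0 enriched at an unadjusted p of 0.05 and 0 in edgeR, where 12 were depleted. Of all genes, 27.2% were depleted in limma and 17.1% in edgeR. The median of the listed regulators was -3.02. The lowest adjusted p values in limma belonged to skn-1, for the Nrf-like factor of the detoxification response (-4.80 ± 0.24, adjusted p = 1.3e-05), egl-9, for the prolyl hydroxylase that acts on HIF-1 (-4.86 ± 0.15, 3.4e-05), pqm-1, for a zinc finger factor (-4.76 ± 1.50, 0.00019), and nhr-48, for a nuclear hormone receptor (-4.13 ± 1.18, 0.00019), SD with n = 3. Of the 5 that were not called, ahr-1, the gene of the aryl hydrocarbon receptor, was at 0.08, hsf-1 at 0.09, hif-1 at 0.40, atfs-1 at -2.83 (limma adjusted p = 0.0586) and sek-1 at -1.81 (limma adjusted p = 0.116).

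The enzyme families of the other detoxification steps differed in their counts. Cytochrome P450 genes, for the oxidation step, had 35 of 72 enriched and 8 depleted (median log2 ratio 2.02), and glutathione S-transferase genes, another conjugating family, had 16 of 48 enriched and 8 depleted (median 1.38). ABC exporter genes of the pgp and mrp classes had 10 of 22 enriched and 2 depleted (median 0.96), and short-chain dehydrogenase genes had 3 of 29 enriched and 15 depleted (median -2.30). The enriched shares were 48.6%, 33.3%, 45.5% and 10.3% in this order, beside 30.3% of all genes, and the depleted shares 11.1%, 16.7%, 9.09% and 51.7%, beside 27.2%. The UGT median of -0.14, -0.77 and -0.49 in the replicates lay beside 2.0, 1.25 and 1.58 for cytochrome P450 genes and 1.55, 1.18 and 0.91 for glutathione S-transferase genes. In 3 of 3 replicates the UGT genes were below both of these families, a comparison of medians with no test. Place on the chromosomes was not matched between families, and genes lying side by side, such as gst-26 and gst-27 on II, were counted singly.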

How the data were processed

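The 6 DamID libraries, 3 Dam::EMR-1 and 3 GFP::Dam, were grouped and numbered by their titles. DNA of 200 ng was amplified for 24 PCR cycles, per the labels' protocols. The authors deposited tables for GATC sites and bins of 2, 10 and 100 kb that hold, per the file headers, a log2 ratio per replicate number, a count of raw reads summed over libraries, an average log2 value and an adjusted p-value. The submitters' processing notes name ce11 and DESeq2, with no role. The aligner, and what was done with reads that fit several places, were not given in the sources used here. The deposited log2 ratios follow, by their values, log2 of (reads + 1) in one group over (reads + 1) in the other for the same number, less a constant per column.

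Whole reads per library were recovered from ratio and sum with a tolerance of 4e-12 (log2), uniquely for 90.2% of GATC sites (89.7% of sites in UGT windows), 96.3% of 10-kb and 99.9% of 100-kb bins, with 0 entries lacking a solution. In 3000 simulated entries 2432 solutions were unique and 2432 of these were right. Depth came from the 100-kb table. Levels are CPM of that depth, per recovered site. Intervals were not computed, because PCR copies of a molecule are counted as reads.

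Gene places were read from RefSeq's WBcel235 genes, without strand, and 18651 of 19294 protein-coding genes with a site had at least 60 reads. The main test was limma 3.58.1 in R 4.3.3, with an intercept only on the 3 ratios, a variance trend on log2 reads, robust estimation, Benjamini-Hochberg adjustment and a two-sided threshold of 0.05. Data were simulated for the same 18651 genes, with 100 changed by 2 (log2), 100 changed by 4 and all others unchanged. Of these, 28 of 100 and 94 of 100 were recovered, with 5 false calls. The main test called 5646 genes enriched and 5065 depleted, so its cutoff on the unadjusted p was looser. The simulated counts thus do not give the recovery or the false calls of the main test. edgeR 4.0.16 (quasi-likelihood, TMM) was run on recovered reads summed per gene. Other steps used Python 3.11.15, pandas 2.3.3 and numpy 2.4.6. Deviations of same-numbered libraries of the groups had r of -0.050, -0.064 and -0.032 across genes, so no shared deviation was seen. This cannot tell whether same-numbered libraries were prepared together. The deposited ratios take them together.

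The UGT genes and the other lists were chosen with earlier results of these data known. Named are called UGT genes with all replicates of the same sign (up to 12 per direction), every member of a group of neighbouring UGT genes, the 3 farthest above and below their neighbourhood, and up to 4 called genes per direction of the donor-sugar and regulator lists. Named after their values were seen were ugt-29, ugt-53, ugt-40, sqv-4, the regulators that were not called, the members near the threshold and the genes beside steps.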

Additional observations from a re-analysis of the deposited data

How the results depend on the processing

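Of the 25 called UGT genes, ugt-40 alone changed sign, from -1.50 to 0.20 with gene bodies alone, and its call was lost in 12 of 14 alternatives. The calls of ugt-62, ugt-9, ugt-20 and ugt-53 were lost in 9, 7, 4 and 2. Of 294 values of the other 20 called genes and ugt-55 under alternatives, 250 kept their side of the threshold and 44 lost it; ugt-11, ugt-12, ugt-23, ugt-25, ugt-37, ugt-51, ugt-54, ugt-58, ugt-59 and ugt-6 kept their call in all 14. The number of enriched UGT genes, 8 in the main test, became 2 in edgeR on summed reads without a replicate block and 1 with the block. It was 3 at an adjusted p of 0.01 and 4 to 7 with 1 replicate left out, which included 3 to 5 of the 8. The number of depleted ones, 17 in the main test, became 11 in edgeR with the replicate block. It was 11 to 15 with 1 replicate left out, which included 11 to 14 of the 17. limma on the 6 libraries without a replicate block gave 11 and 19. The enriched share of UGT genes was below that of all genes in every setting, from 1.56% against 11.5% (edgeR with the block) to 18.8% against 33.3% (total-read scaling).

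The median log2 ratio of -0.52 became -0.18 with gene bodies alone, -1.05 over 2-kb bins and -0.55 to -0.14 with 1 replicate left out. The outer minus middle difference of 0.22 became -0.56 over 2-kb bins and -0.11 to 0.44 with 1 replicate left out, and the median difference of -0.39 from neighbouring genes became -0.46 to 0.05 with 1 replicate left out (0.052 without replicate 2). The number of UGT genes above their neighbourhood, 9 at first, became 5 within 50 kb and 4 with gene bodies alone. It was 5 with the median over sites and 4 to 8 with 1 replicate left out. The number below, 17 at first, became 10 with the median over sites and 13 to 14 with 1 replicate left out. The cause of these shifts was not tested. Read depth limits members such as ugt-51 and ugt-63, where 1 group held 10 or fewer reads per library. In ugt-56, 10 or fewer were recovered per GFP::Dam library, from 4 of its 6 sites.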
